A study of Mus musculus with 8 samples.

Results

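The tumour necrosis factor (TNF) superfamily of ligands and the matching superfamily of receptors were examined in the colon of mice with acute graft-versus-host disease, which arises when T cells of a graft respond against the recipient. The members were the genes whose symbol begins with Tnfsf or Tnfrsf and a digit, together with Tnf, Lta, Ltb, Ltbr, Fas, Cd40, Cd40lg, Cd27 and Cd70. Of 19505 genes with a name in the platform annotation, 37 were members found by this rule, each read by 1 probe set: 14 ligands, 5 receptors with a death domain, 14 receptors that signal through TRAF adaptors and 4 decoy or secreted receptors. Cd27, Tnfsf12 and Tnfsf13 were not analysed here.

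Most ligands of this family are made by leukocytes as trimers on the cell surface or shed from it, and each binds 1 or several receptors. Receptors with a death domain can start programmed cell death or inflammatory signalling. Most of the others, apart from the decoy or secreted receptors, recruit TRAF adaptors and can activate NF-kB. Members such as OX40 (Tnfrsf4), 4-1BB (Tnfrsf9) and CD30 (Tnfrsf8) act as costimulatory receptors of activated T cells. TNF itself is a central inflammatory cytokine of the gut, and osteoprotegerin (Tnfrsf11b) is a secreted receptor that captures the ligand RANKL (Tnfsf11).

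All 8 recipients were wild-type BALB/c mice that had been lethally irradiated and transplanted on day 0 with bone marrow cells and T cells of C57BL/6 donors. From day 0 to day 7 they received by mouth either PBS (4 mice) or hBD-2, human beta-defensin 2, an antimicrobial peptide of epithelial cells, at 1.2 mg/kg (4 mice), and colon RNA was taken on day 7. Both groups had the disease, and mice without it, their age and their sex are not given in the sources used here. RNA of the whole colon wall was measured on 1 Affymetrix array per mouse, so a lower value can mean fewer cells of a type or less RNA per cell, and these cannot be told apart.

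The medians of the 8 arrays ranged from 6.77 to 6.82 log2 units, and precision is limited by how few arrays there are. The 10 epithelial markers measured, such as Epcam and Krt20, were all above the median of the genes. On the first principal component, hBD-2 1 (25.2) and hBD-2 3 (25.4) were far from the remaining arrays (-14.9 to -2.45). They also had the highest values of Hoxb13, a gene of the posterior body axis, at 9.06 and 9.32 log2 units against 4.73 to 7.22. Values without this pair of arrays are given wherever they differ by over 1.5 times or in direction, as an alternative chosen after the data were seen.

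None of the 37 members passed an adjusted p of 0.05 in limma (0.0410% of all genes passed), and the lowest adjusted p among them was 0.124. Without adjustment, 6 members had p under 0.05 with a lower value in the hBD-2 mice and 0 with a higher one, where over all genes 5.98% were lower and 5.85% higher. These 6 were Tnfsf8, Tnf, Tnfrsf4, Tnfrsf1b, Tnfrsf9 and Tnfrsf11b. With any single array, or that pair, left out, their differences kept their direction and moved by at most 1.5 times. They were picked by p on the same arrays, so this is a description and not separate support. In 4 members, Tnfsf8, Tnfrsf1b, Tnfrsf9 and Tnfrsf10b, the highest hBD-2 mouse was below the lowest PBS mouse, and in 0 members the reverse held, against 3.60% and 2.80% of all genes. Tnfrsf1b and Tnfrsf10b overlapped once arrays were centred on their medians or quantile normalization was repeated. The median difference over the members was -0.077 log2 units, hBD-2 minus PBS, against 0.012 over all genes. It was -0.034 without the pair. By role the medians were close to 0 for ligands (0.023 without the pair), -0.086 for death domain receptors, -0.082 for TRAF-binding receptors (-0.027 without the pair) and -0.19 for decoy receptors. All differences below are log2 differences of hBD-2 minus PBS, with moderated standard errors (SE) and p-values adjusted over all 19505 genes by limma.

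**Figure D1:**
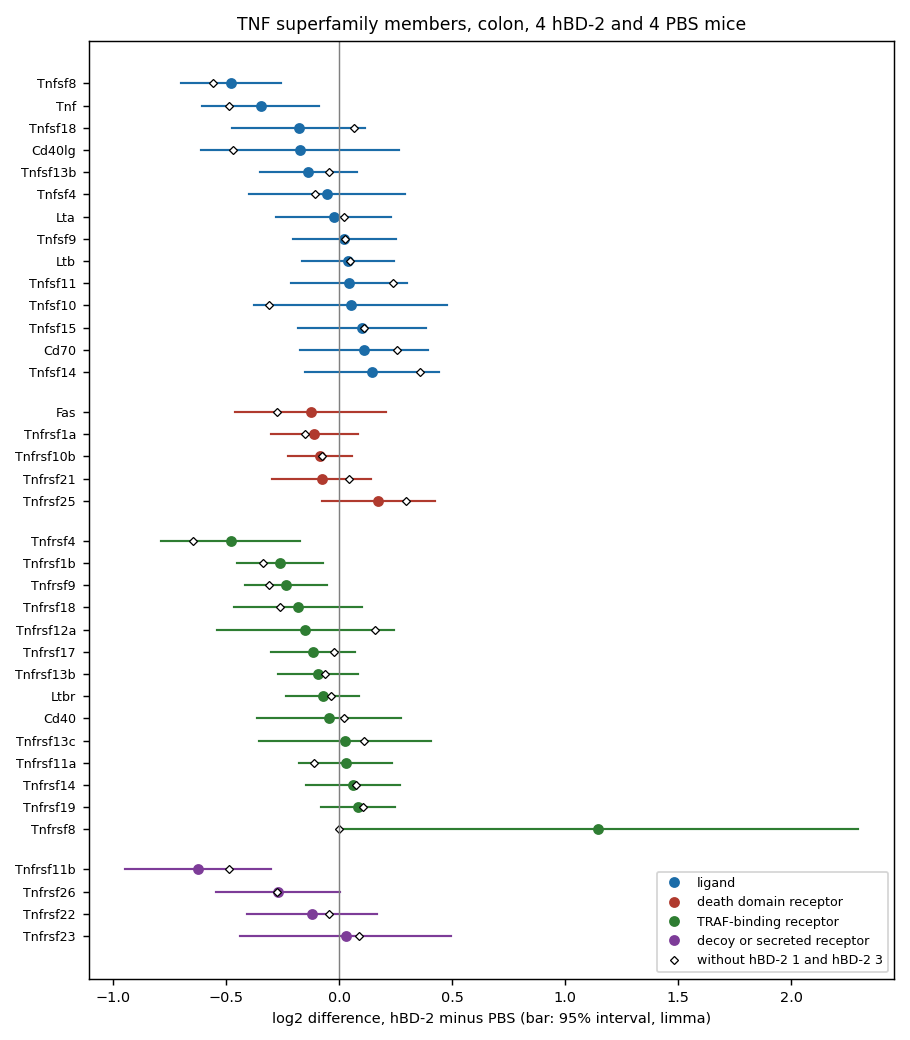
Log2 difference of hBD-2 minus PBS (x axis) for each of the 37 members (y axis), coloured by role, with its 95% interval from limma on 4 against 4 mice; open diamonds are the differences without hBD-2 1 and hBD-2 3. The intervals of 6 members lie wholly below 0, and Tnfrsf8, at 1.14, has the widest interval and a diamond at about 0.

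Among the ligands, the lowest p belonged to Tnfsf8, which encodes CD30 ligand, a costimulatory ligand of activated T cells and myeloid cells. Its log2 values were 5.15, 5.21, 5.18 and 4.96 in the PBS mice and 4.83, 4.71, 4.62 and 4.43 in the hBD-2 mice. The groups did not overlap, and hBD-2 4 was the lowest. The difference was -0.48 (SE 0.10, adjusted p = 0.124), a 1.39-fold lower mean, from 5.13 ± 0.11 to 4.65 ± 0.17 (SD, n = 4 each). The probe set lay in the lowest 25% of genes by mean level, where 6 members lay. The others there were Tnfsf4, Tnfsf18, Cd40lg, Cd70 and Tnfrsf17. No detection call accompanies these values.

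Tnf, the cytokine that gives the family its name, stood at 8.10, 8.03, 7.99 and 7.74 in PBS and 7.91, 7.53, 7.61 and 7.43 in hBD-2 mice. The groups overlapped through PBS 4 and hBD-2 1, while the other hBD-2 mice lay below every PBS mouse. The difference was -0.35 (95% interval -0.61 to -0.087, adjusted p = 0.285), and -0.49 without the pair of arrays.

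The lymphotoxins, which lie beside Tnf in the genome and organise lymphoid tissue, had differences near 0. Lta stood at 7.38, 7.14, 7.24 and 7.48 in PBS and 7.41, 7.16, 7.07 and 7.50 in hBD-2 mice, a difference of -0.024 (95% interval -0.28 to 0.23), and at 0.021 without the pair. Ltb, the membrane anchor of the lymphotoxin trimer, stood at 6.55, 6.84, 6.85 and 6.95 in PBS and 6.85, 6.79, 6.81 and 6.90 in hBD-2 mice, a difference of 0.038 (95% interval -0.17 to 0.24). PBS 1 was the lowest array for Ltb, and the other 7 lay between 6.79 and 6.95.

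The other costimulatory ligands had differences nearer to 0 than Tnfsf8. Of these, Tnfsf4, Tnfsf18, Cd40lg and Cd70 lay in the lowest 25% of genes by mean level, and Tnfsf9 at 29.4%. Whether such low values carry a signal was not tested, so a difference near 0 here does not show an unchanged ligand. Tnfsf4, encoding OX40 ligand, was 4.54, 4.74, 4.58 and 4.41 in PBS and 4.99, 4.45, 4.16 and 4.47 in hBD-2 mice, with hBD-2 1 the highest and hBD-2 3 the lowest of all 8. Its difference was -0.052 (95% interval -0.40 to 0.29), and -0.11 without the pair. Tnfsf9, encoding 4-1BB ligand, was 5.61, 5.48, 5.18 and 5.23 in PBS and 5.35, 5.35, 5.43 and 5.45 in hBD-2 mice, all of the latter within the PBS range, with a difference of 0.023. Cd40lg, the helper signal that T cells give to B cells and dendritic cells, was 4.50, 4.84, 5.29 and 4.87 in PBS and 4.88, 4.33, 5.12 and 4.48 in hBD-2 mice. The difference of -0.17 (SE 0.20) became -0.47 without the pair, since hBD-2 2 and hBD-2 4 were the lowest arrays for it. Cd70 stood at 0.11 (0.26 without the pair) and Tnfsf18, the ligand of GITR, at -0.18 (0.064 without the pair), and neither passed.

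Several ligands depended on which hBD-2 arrays were taken. Tnfsf14, encoding LIGHT, a T cell ligand that binds the lymphotoxin beta receptor, was 7.20, 7.11, 7.35 and 7.42 in PBS and 7.21, 7.79, 7.20 and 7.47 in hBD-2 mice. Its difference of 0.15 (SE 0.13) grew to 0.36 without the pair, and shrank to 0.025 without hBD-2 2, the highest array. Tnfsf11, encoding RANKL, which drives the formation of M cells and osteoclasts, was 6.32, 6.23, 6.40 and 6.47 in PBS and 6.25, 6.54, 6.15 and 6.64 in hBD-2 mice. Here hBD-2 2 and hBD-2 4 were the highest of all arrays, so that the difference of 0.043 became 0.24 without the pair.

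Tnfsf10, encoding the death ligand TRAIL, had the opposite order, at 9.39, 9.68, 9.82 and 9.57 in PBS and 10.12, 9.17, 9.94 and 9.44 in hBD-2 mice. Its highest values were in hBD-2 1 and hBD-2 3 and its lowest in hBD-2 2, and the difference of 0.052 (95% interval -0.37 to 0.48) turned to -0.31 without the pair. Tnfsf13b, encoding the B cell survival factor BAFF, was 7.79, 7.82, 7.64 and 7.48 in PBS and 7.40, 7.66, 7.51 and 7.63 in hBD-2 mice, a difference of -0.14 (-0.043 without the pair). Tnfsf15, encoding TL1A, a ligand linked to inflammatory bowel disease, was 7.29, 7.37, 6.76 and 7.24 in PBS and 7.27, 7.15, 7.25 and 7.40 in hBD-2 mice. Without PBS 3, its lowest array, the difference of 0.10 turned to -0.032.

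Among the TRAF-binding receptors, Tnfrsf4, encoding OX40 on activated and regulatory T cells, stood at 7.43, 7.25, 7.09 and 6.96 in PBS and 6.99, 6.38, 6.74 and 6.69 in hBD-2 mice. Only hBD-2 1 overlapped the PBS range, by lying just above PBS 4, and hBD-2 2 was the lowest. The difference was -0.48 (95% interval -0.79 to -0.17, adjusted p = 0.228), from 7.18 ± 0.20 to 6.70 ± 0.25 (SD, n = 4 each). Tnfrsf18, encoding GITR, the neighbouring gene and another receptor of regulatory T cells, was at -0.18 (95% interval -0.47 to 0.10).

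Tnfrsf1b, encoding TNF receptor 2, which is found mainly on leukocytes and endothelium, was 9.15, 9.28, 9.34 and 9.38 in PBS and 9.13, 9.05, 9.08 and 8.86 in hBD-2 mice. The groups did not overlap, although PBS 1 and hBD-2 1 lay next to each other. The difference was -0.26 (SE 0.085, adjusted p = 0.273). Tnfrsf9, encoding 4-1BB, a costimulatory receptor of activated T and NK cells, was 6.87, 7.05, 6.81 and 6.85 in PBS and 6.77, 6.62, 6.70 and 6.55 in hBD-2 mice. Every hBD-2 mouse was lower than every PBS mouse, by a small step between PBS 3 and hBD-2 1, and the difference was -0.23 (SE 0.082, adjusted p = 0.299).

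Tnfrsf8, encoding CD30, was the member with the largest difference, and it is described here after its values were seen. It stood at 6.20, 6.47, 6.32 and 6.48 in PBS mice and at 8.77, 6.51, 8.54 and 6.23 in hBD-2 mice. hBD-2 1 and hBD-2 3 lay over 2 log2 units above each of the other 6 arrays, whereas hBD-2 2 and hBD-2 4 lay within or just above the PBS range. The difference was 1.14 (95% interval -0.0064 to 2.29, adjusted p = 0.424), 0.72 without hBD-2 1 and 0.00087 without both. These are the 2 arrays with the highest Hoxb13, and the part of colon position in the Tnfrsf8 values was not tested. The SD among hBD-2 mice, 1.33, was the largest of any member, and the next was 0.44 for Tnfsf10, against a median of 0.19 over members and 0.14 over all genes in that group.

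**Figure D2:**
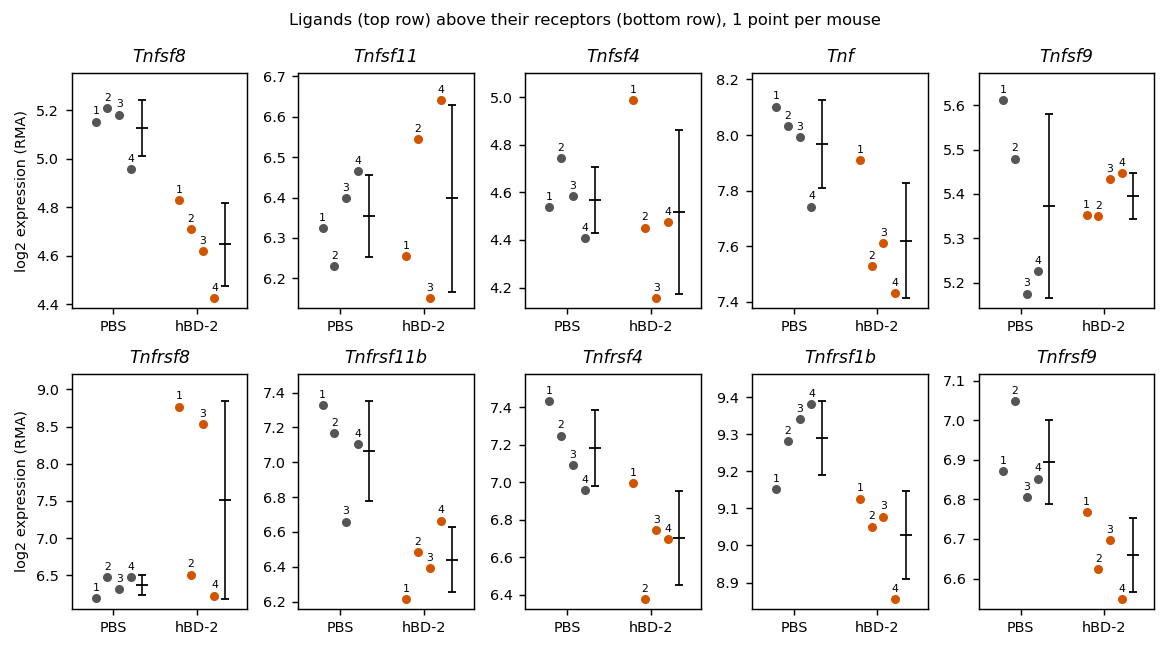
Log2 expression (y axis, a separate scale per panel) of 5 ligands in the top row and, below each, a receptor of it, with 1 point per mouse numbered by replicate and the mean ± SD of each group as a bar beside the points. Tnfsf8 lies lower in all 4 hBD-2 mice, whereas Tnfrsf8 is high in hBD-2 1 and hBD-2 3 only; the means of Tnfrsf11b, Tnfrsf4 and Tnfrsf9 are lower in hBD-2 mice, while those of their ligands Tnfsf11, Tnfsf4 and Tnfsf9 differ by 0.043, -0.052 and 0.023.

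The other TRAF-binding receptors had smaller differences. Cd40, the receptor on B cells, dendritic cells and macrophages, was 7.19, 7.03, 6.95 and 7.15 in PBS and 7.14, 6.76, 6.80 and 7.44 in hBD-2 mice, where hBD-2 4 was the highest and hBD-2 2 the lowest of all 8. Its difference was -0.045 (95% interval -0.36 to 0.27), and 0.022 without the pair. Ltbr, the lymphotoxin beta receptor of stromal and epithelial cells, was 10.53, 10.39, 10.41 and 10.39 in PBS and 10.39, 10.40, 10.24 and 10.38 in hBD-2 mice, a difference of -0.073 (95% interval -0.23 to 0.088, and -0.034 without the pair). Tnfrsf12a, encoding the TWEAK receptor Fn14, which is induced in injured epithelium, was 8.82, 8.99, 8.63 and 8.53 in PBS and 8.43, 8.90, 8.14 and 8.90 in hBD-2 mice. It was lowest in hBD-2 1 and hBD-2 3, and the difference of -0.15 turned to 0.16 without them.

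The B cell receptors of BAFF, Tnfrsf13b, Tnfrsf13c and Tnfrsf17, stood at -0.092, 0.026 (0.11 without the pair) and -0.12 (-0.021 without the pair). Tnfrsf13c was lowest in PBS 1, at 5.43, and without it the difference was -0.16. Tnfrsf11a, encoding RANK, was at 0.030 (-0.11 without the pair), Tnfrsf14, encoding HVEM, at 0.060, and the Wnt-associated receptor Tnfrsf19 at 0.084. None of these passed.

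Among the receptors with a death domain, Tnfrsf1a, encoding the broadly made TNF receptor 1, was 9.89, 10.01, 9.89 and 10.15 in PBS and 9.94, 9.94, 9.90 and 9.73 in hBD-2 mice, a difference of -0.11 (95% interval -0.30 to 0.081). Only hBD-2 4 lay below the PBS range. Tnfrsf10b, the mouse TRAIL receptor, was 7.83, 7.83, 7.78 and 7.89 in PBS and 7.71, 7.78, 7.76 and 7.74 in hBD-2 mice. The groups did not overlap, by less than 0.01 between PBS 3 and hBD-2 2, and the difference was -0.086 (SE 0.064, unadjusted p = 0.210 by limma).

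Fas, a receptor through which cytotoxic T cells can kill their targets, was 7.18, 6.99, 7.05 and 7.39 in PBS and 7.35, 6.61, 7.00 and 7.14 in hBD-2 mice. PBS 4 and hBD-2 1 were the highest and hBD-2 2 the lowest. The difference was -0.13 (95% interval -0.46 to 0.21), -0.27 without the pair and 0.011 without hBD-2 2. Tnfrsf25, the receptor of TL1A on T cells, was 7.36, 7.33, 7.39 and 7.74 in PBS and 7.59, 7.73, 7.43 and 7.77 in hBD-2 mice. PBS 4 lay among the hBD-2 mice, and the difference of 0.17 (SE 0.11) was 0.27 without that array and 0.29 without the pair. Tnfrsf21, encoding death receptor 6, stood at -0.077 (0.044 without the pair).

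The decoy and secreted receptors included the member with the largest difference towards lower values. Tnfrsf11b, encoding osteoprotegerin, which is made by stromal and endothelial cells, was 7.33, 7.17, 6.66 and 7.10 in PBS and 6.22, 6.48, 6.39 and 6.66 in hBD-2 mice. The groups met at a single point, where PBS 3 and hBD-2 4 were alike, and the other hBD-2 mice were lower than every PBS mouse. The difference was -0.62 (95% interval -0.95 to -0.30, adjusted p = 0.156), a 1.54-fold lower mean, from 7.06 ± 0.29 to 6.44 ± 0.19 (SD, n = 4 each). The mouse decoy receptors Tnfrsf22, Tnfrsf23 and Tnfrsf26, which form a gene cluster, stood at -0.12 (-0.044 without the pair), 0.029 (0.090 without the pair) and -0.27. Of these, Tnfrsf26 came nearest to passing (unadjusted p = 0.0537 by limma), and it was lowest in hBD-2 2, at 6.50 against 6.82 to 7.20 in the other arrays.

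**Figure D3:**
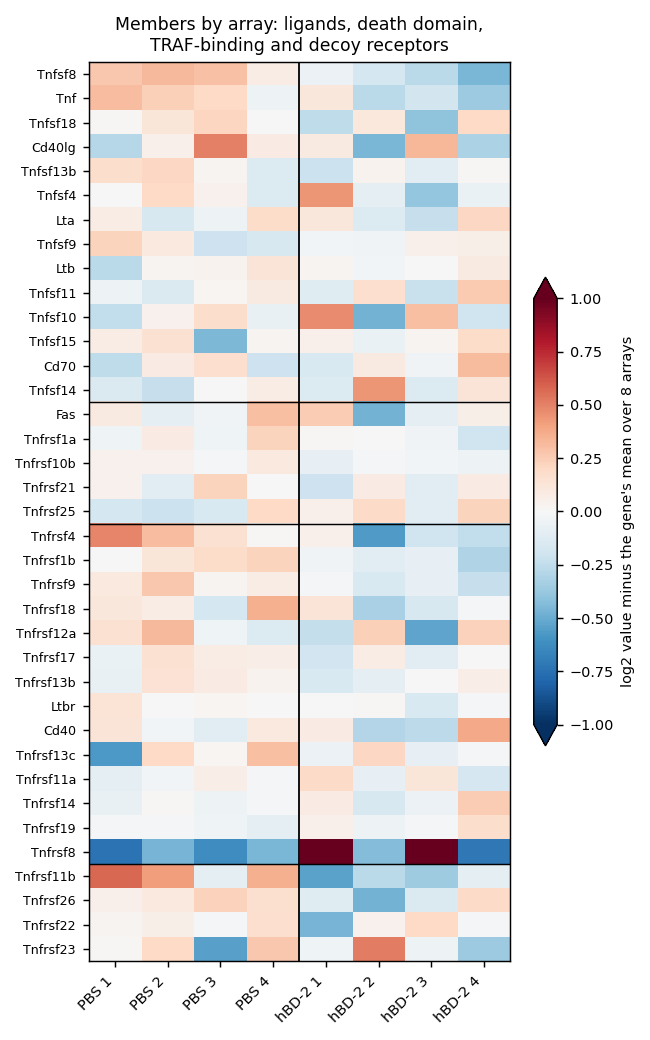
Log2 value of each of the 37 members (rows, by role and then by difference) in each array (columns), relative to the gene's mean over the 8 arrays; colours stop at -1 and 1, which Tnfrsf8 passes in hBD-2 1 and hBD-2 3. Rows such as Tnfsf8, Tnf, Tnfrsf4 and Tnfrsf11b are mostly red in PBS and blue in hBD-2 arrays, while most other rows show no such split.

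The promoters of Tnfsf8, Tnfrsf8, Tnf and Tnfrsf9 are shown because they belong to the ligand and receptor of the pair that differed most, to the name-giving cytokine, and to a costimulatory receptor that was lower in every hBD-2 mouse. Each is the 250 bases before a transcription start in RefSeq (GRCm38.p6), on the gene's strand, 5′ to 3′. Capitals mark matches to the NF-kB consensus on either strand. The windows are chr4:63861285-63861534 (minus strand) for Tnfsf8, chr4:145315165-145315414 (minus strand) for Tnfrsf8, chr17:35202008-35202257 (minus strand) for Tnf and chr4:150927749-150927998 (plus strand) for 1 of the starts of Tnfrsf9.
Tnfsf8: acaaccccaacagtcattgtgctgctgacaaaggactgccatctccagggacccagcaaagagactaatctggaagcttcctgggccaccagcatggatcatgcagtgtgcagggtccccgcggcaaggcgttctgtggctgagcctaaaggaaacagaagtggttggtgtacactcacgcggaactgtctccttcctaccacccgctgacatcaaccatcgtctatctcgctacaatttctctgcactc
Tnfrsf8: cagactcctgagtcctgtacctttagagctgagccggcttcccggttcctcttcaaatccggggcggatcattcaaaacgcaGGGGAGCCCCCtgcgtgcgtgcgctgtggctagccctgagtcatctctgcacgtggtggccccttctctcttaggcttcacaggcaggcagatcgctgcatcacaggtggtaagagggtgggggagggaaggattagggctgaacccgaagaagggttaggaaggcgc
Tnf: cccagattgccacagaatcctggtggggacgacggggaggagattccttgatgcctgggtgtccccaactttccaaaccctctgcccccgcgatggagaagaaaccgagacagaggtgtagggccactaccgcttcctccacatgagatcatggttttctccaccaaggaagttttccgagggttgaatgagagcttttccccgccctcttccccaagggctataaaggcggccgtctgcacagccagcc
Tnfrsf9: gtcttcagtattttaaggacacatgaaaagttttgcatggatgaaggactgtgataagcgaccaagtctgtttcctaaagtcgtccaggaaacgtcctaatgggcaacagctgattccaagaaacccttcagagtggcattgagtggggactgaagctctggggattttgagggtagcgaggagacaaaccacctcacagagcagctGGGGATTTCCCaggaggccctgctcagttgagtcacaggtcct

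A window was found for 28 of the 37 members, 32 windows in all. The NF-kB consensus had a match in 4 of them (12.5%), those of Ltb, Tnfrsf25, Tnfrsf8 and Tnfrsf9, against 7.25% of 32851 windows of the same length over all genes. In the window shown for Tnfrsf9 it begins 43 bases before the start and in Tnfrsf8 168 bases before it, in each case as overlapping matches that share most of their letters. Both windows also hold the AP-1 motif TGANTCA, which 5 member windows (15.6%) and 6.75% of all windows held. TATAAA was in 6 (18.8%, 12.4% of all), among them Tnf. These 3 motifs were searched on both strands, and no motif is part of another. The window at the other start of Tnfrsf9 held neither an NF-kB nor an AP-1 match. A match is a description of the letters, not a site in use.

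Ligands and their receptors were set side by side for 18 pairs with both genes measured. In 11 of them the differences had the same sign. Some genes are in several pairs, and 62.2% of all members had a difference below 0, so this count is a description. TNF and its receptor 2 were both lower, at -0.35 and -0.26, and within an array the receptor minus ligand value was higher by 0.085 in the hBD-2 mice (0.15 without the pair of arrays), with overlapping groups. In the OX40 pair the receptor stood at -0.48 and the ligand, in the lowest 25% of genes by mean level, at -0.052. In the 4-1BB pair the receptor stood at -0.23 and the ligand, also at a low level, at 0.023. Receptor minus ligand overlapped between the groups in both. It did not overlap in the CD30 pair and in the pair of RANKL with osteoprotegerin, whereas RANK minus RANKL overlapped, at -0.014 (-0.35 without the pair of arrays). Tnfrsf8 minus Tnfsf8 was 1.04 to 1.52 in PBS mice, 1.80 in hBD-2 2 and in hBD-2 4, and reached 3.92 to 3.94 in the pair with high Hoxb13. Tnfrsf11b minus Tnfsf11 was 0.26 to 1.0 in PBS and -0.061 to 0.24 in hBD-2 mice, so osteoprotegerin was lower against its ligand in each hBD-2 mouse, between PBS 3 and hBD-2 3 by a narrow margin. These differences between genes were not tested, and no share over other gene pairs was computed. Tnfsf8 and Tnfrsf11b had been picked by p on the same arrays and Tnfrsf8 after its values were seen. The separation of these pairs is therefore not separate support.

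**Figure D4:**
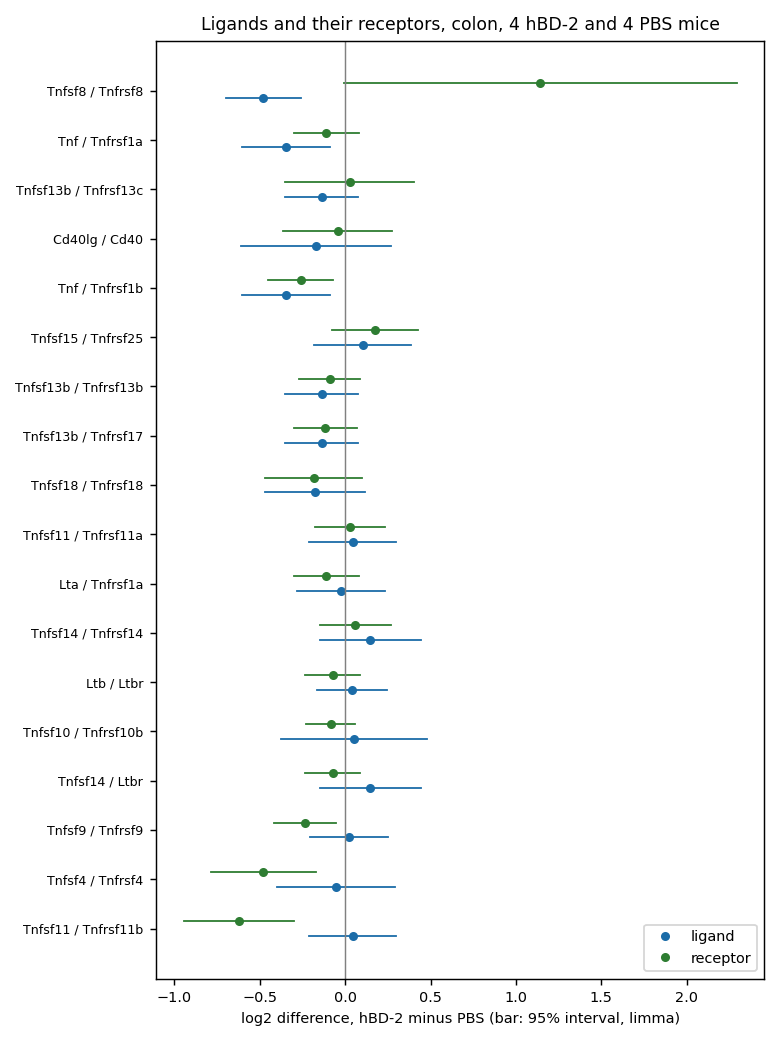
Log2 difference of hBD-2 minus PBS (x axis) with its 95% interval from limma for the ligand (blue) and the receptor (green) of 18 pairs (y axis), 4 mice per group, ordered by receptor minus ligand. The CD30 pair at the top and the RANKL and osteoprotegerin pair at the bottom lie furthest apart, while most pairs overlap widely around 0.

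Many members lie next to each other in the genome, so neighbours were set side by side. Of 11 pairs of members with at most 1 protein-coding gene between them, 7 had differences of the same sign, again with genes shared between pairs. Tnfsf8 stood at -0.48 and the adjoining Tnfsf15 at 0.10, and Tnfsf8 minus Tnfsf15 was lower in each hBD-2 mouse than in each PBS mouse (-2.97 to -2.44 against -2.29 to -1.58). Tnfrsf1b stood at -0.26 beside Tnfrsf8 at 1.14. Tnf, at -0.35, lies between Lta, at -0.024, and Ltb, at 0.038. Differences between neighbours were not tested.

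The adaptors that carry the signal of these receptors included Traf1 and Traf5, which were lower in every hBD-2 mouse than in every PBS mouse. None of the 24 adaptor and death machinery genes measured passed. With no adjustment, 4 (16.7%) with p under 0.05 were lower and 0 higher, against 5.98% and 5.85% of all genes. Without overlap, 3 (12.5%) lay below and 1 (4.17%) above, against 3.60% and 2.80% of all genes. The 1 above was Sharpin, at 0.14. Without the pair, 5 lay below and 3 above, against 9.97% and 11.8%. The median over the list was -0.028 (-0.064 without the pair). Traf1, an adaptor induced by NF-kB that binds TNF receptor 2, CD30 and 4-1BB, was 5.62, 5.66, 5.73 and 5.57 in PBS and 5.23, 5.39, 5.08 and 5.06 in hBD-2 mice, with no overlap, a difference of -0.46 (SE 0.089, adjusted p = 0.0979 by limma). Traf5, an adaptor of OX40 and CD30, was 6.37, 6.24, 6.22 and 6.36 in PBS and 6.03, 5.71, 5.93 and 5.81 in hBD-2 mice, with no overlap, a difference of -0.43 (SE 0.086, adjusted p = 0.107 by limma). The partner adaptor Traf2 was at -0.29, and Adam17, the protease that sheds TNF and its receptors from the cell surface, at -0.26. Named after their values were seen, the adaptors Traf4 and Traf6 stood at 0.045 and -0.047 (0.075 and 0.090 without the pair), and Casp8 and Ripk3, which carry out cell death below these receptors, at -0.079 and -0.0054 (-0.041 and -0.061 without the pair).

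In the list of NF-kB subunits, kinases and inhibitors, 0 of 14 genes passed in limma. At an unadjusted p under 0.05, 2 (14.3%) were lower and 0 higher, against 5.98% and 5.85% of all genes. The median was -0.039 (-0.11 without the pair). The 4 lowest p-values belonged to Bcl3, a nuclear cofactor of NF-kB, at -0.33, the lymphoid subunit Rel at -0.23, the precursor Nfkb2 at -0.15 (-0.25 without the pair) and the feedback inhibitor Tnfaip3 at -0.21 (-0.32 without the pair). Of 18 genes known to be induced by TNF, 0 passed. At an unadjusted p under 0.05, 5 of them (27.8%) were lower and 0 higher, against the same shares of all genes. Their median was -0.28 (-0.13 without the pair). The endothelial and macrophage gene Tnfaip2, at -0.76 (SE 0.12, adjusted p = 0.0634 by limma), and the monocyte attractant Ccl2, at -0.51, came nearest to passing, followed by the adhesion molecule Vcam1 at -0.59 and the cytokine Il1b at -1.0. With an intensity trend and robust prior, with array weights, or after dropping the lowest 50% of probe sets, 2 genes of that list passed, while over all genes 91, 68 and 46 passed against 8 as reported.

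Ligands and receptors of the family that the symbol rule does not reach were mixed. None of the 7 passed, and 1 (14.3%) was lower at an unadjusted p under 0.05, against 5.98% of all genes. The median was 0.024 (0.067 without the pair). Eda2r, the receptor of the ectodysplasin form A2, was 6.57, 6.41, 6.13 and 6.18 in PBS and 6.04, 5.61, 5.64 and 6.13 in hBD-2 mice, with PBS 3 and hBD-2 4 side by side at the border of groups that did not overlap. The difference was -0.47 (adjusted p = 0.252 by limma). Relt stood at -0.20, Eda at 0.065, and Fasl, the death ligand of cytotoxic T cells, at -0.11 (95% interval -0.34 to 0.12, and -0.056 without the pair), with 5.97, 6.28, 6.23 and 6.15 in PBS and 5.97, 5.91, 6.01 and 6.29 in hBD-2 mice.

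**Figure D5:**
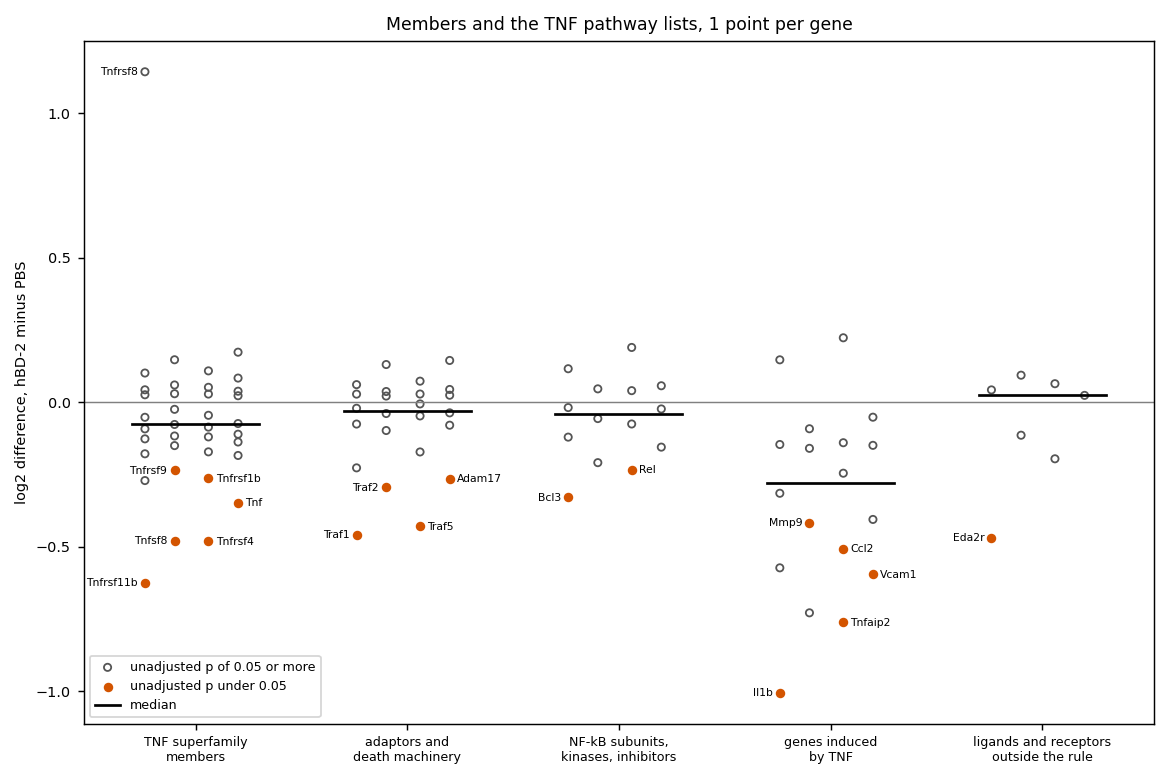
Log2 difference of hBD-2 minus PBS (y axis) of each gene among the 37 members and in 4 lists of the pathway (x axis), 4 mice per group; filled and named points have an unadjusted p under 0.05 in limma, Tnfrsf8 is named as well, and bars are medians. All filled points lie below 0, and the genes induced by TNF have the lowest median, -0.28.

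Markers of the cells that make these ligands and receptors had their own ranges in each group. Averaged over the 10 T cell markers measured and relative to each gene's mean, arrays ranged over -0.082 to 0.22 in PBS and -0.42 to 0.12 in hBD-2 mice, with hBD-2 2 lowest and hBD-2 4 next. The 10 macrophage markers ranged over 0.10 to 0.39 and -0.42 to -0.067, and the 9 fibroblast markers over 0.19 to 0.31 and -0.31 to -0.065, without overlap in either list. The 8 endothelial markers ranged over 0.028 to 0.23 and -0.33 to 0.085. The 10 epithelial markers ranged over -0.037 to 0.058 and -0.053 to 0.037. The 11 B cell and plasma cell markers ranged over -0.15 to 0.073 and -0.059 to 0.091, and the 10 dendritic cell markers over -0.037 to 0.093 and -0.12 to 0.18. Ms4a1, Cd79b, Cr2, Mzb1, Flt3, Xcr1, Clec9a and Siglech of these 2 lists lay in the lowest 25% of genes by mean level. The dendritic cell mean also joins unlike genes, from Itgax at -0.73 to Flt3 at 0.40, with 6 below 0 and 4 above (4 and 6 without the pair). Neutrophil, smooth muscle and lymphoid follicle markers ranged over -0.22 to 0.48, -0.063 to 0.20 and -0.052 to 0.095 in PBS mice and -0.33 to 0.057, -0.45 to 0.13 and -0.14 to 0.11 in hBD-2 mice. Beside a mean difference of -0.18 in the T cell markers (-0.39 without the pair), -0.45 in the macrophage markers and -0.47 in the fibroblast markers, Tnfrsf4 stood at -0.48, Tnf at -0.35 and Tnfrsf11b at -0.62. These means join unlike genes. Single T cell markers ranged from -0.61 for Cd4 to 0.15 for Cd6 (-0.012 without the pair). Macrophage markers ranged from -0.72 for Mrc1 to -0.042 for Fcgr1 (0.0081 without the pair). The part of cell numbers in the members' values was not tested. The 8 genes of posterior colon identity ranged over -0.32 to -0.17 in PBS and -0.048 to 0.52 in hBD-2 mice, highest in hBD-2 1 and hBD-2 3. These ranges did not overlap either, with a mean difference of 0.46 (0.18 without the pair). Of single genes in the list, only Hoxd12, at 0.36, was higher in every hBD-2 mouse than in every PBS mouse. The part of colon position in the members' values was not tested.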

How the data were processed

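RNA from the whole colon of 8 mice was measured on 1 Affymetrix array per mouse, and groups and replicate numbers came from the sample titles. The deposited table holds log2 values for 22203 probe sets, made by the authors with oligo and RMA per the submitters' processing notes (no version), which include background correction, quantile normalization and summary per probe set. A shift shared by all genes is therefore not visible. The sources used here do not name the genome build of the array. The platform annotation gave 19572 probe sets 1 gene, 0 several genes and left 2631 unnamed here. All 37 members matched the gene table. Each gene kept its probe set with the highest mean, which left 19505 genes. No arrays were identical.

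hBD-2 minus PBS was fitted over all genes with limma 3.58.1 (lmFit, eBayes; R 4.3.3), two-sided, with Benjamini-Hochberg adjustment and a threshold of 0.05. The code was tested on simulated data. The members and all lists were chosen with earlier results of these data known. Values in every array are given for members at an unadjusted p under 0.05 or with groups that do not overlap, and for a fixed set of members such as Tnf, Fas and Cd40. The 4 genes of lowest p were named from each of 4 pathway lists, along with Fasl. Promoters were read from RefSeq (GRCm38.p6). Figures were drawn with matplotlib 3.10.9. Replicate numbers are not said to pair mice.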

Additional observations from a re-analysis of the deposited data

Results flagged for a closer look

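In each group of 4 mice, an array whose gap to its nearest neighbour exceeded Dixon's 95% critical share of the group's range was marked as far from the others, for 53 named genes and 106 groups. This met 4 values, where chance gives about 5.3. Ltbr in PBS 1 stood at 10.53 against 10.39 to 10.41 in the other PBS mice, and Ltbr in hBD-2 3 stood at 10.24 against 10.38 to 10.40 in the other hBD-2 mice. Tnfrsf25 in PBS 4 stood at 7.74 against 7.33 to 7.39. Bcl3 in hBD-2 3 stood at 9.51 against 9.27 to 9.30. The high values of Tnfrsf8 in hBD-2 1 and hBD-2 3 were not marked, since 2 arrays of the group share them.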

How the results depend on the processing

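No member passed an adjusted p of 0.05 in limma under any of the 17 alternatives. The 6 members lower at an unadjusted p under 0.05, picked on these same arrays, kept their direction wherever they were tested. Once the lowest 50% of probe sets were dropped, 24 members remained, and Tnfsf8, Tnfrsf9 and Tnfrsf11b were among those dropped. Of the 24, 3 were lower at an unadjusted p under 0.05 and 2 lay below without overlap (8.33% and 5.11% of all genes). With arrays centred on their medians, 2 members, Tnfrsf9 and Tnfsf8, lay below without overlap (2.98% of all genes). With quantile normalization repeated, Tnfrsf11b, Tnfrsf9 and Tnfsf8 did so (3.42% of all genes). Tnfrsf1b and Tnfrsf10b overlapped in both settings. With array weights, 1 member, Tnfrsf8, was higher at an unadjusted p under 0.05 (7.51% of all genes). In the replicate block, with the replicate number as a factor, that count was also 1 (Tnfrsf8) and 7 members were lower (6.90% and 6.25% of all genes); the numbers share only a label, since deviations of same-numbered arrays correlated between -0.15 and 0.24 and 1 of 4 arrays correlated best with its own number. With single arrays left out, 5 to 7 members were lower at an unadjusted p under 0.05 and 0 to 1 higher (4.57% to 6.95% and 3.93% to 7.43% of all genes), 4 to 6 lay below and 0 to 1 above without overlap (4.56% to 6.90% and 3.91% to 6.65%), and the median was -0.095 to -0.039. Without hBD-2 1 and hBD-2 3, 7 lay below and 2 above (Tnfsf11 and Tnfsf14), against 9.97% and 11.8% of all genes, and 3 were higher at an unadjusted p under 0.05, against 7.35%, so that the counts above and higher are near or under those shares; the median was -0.034. Of the genes induced by TNF, 2 passed with the intensity trend, with array weights and in the setting without the lowest 50% of probe sets, where 91, 68 and 46 of all genes passed. The cause of these shifts was not tested.

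Of 610 member values under alternatives, 37 changed sign, over 17 members, none at an unadjusted p under 0.05. With quantile normalization repeated, these were Lta (0.0011), Tnfrsf13c (-0.010) and Tnfsf9 (-0.025). With array weights it was Tnfsf9 (-0.013). Without hBD-2 1 and hBD-2 3 they were Cd40 (0.022), Lta (0.021), Tnfrsf11a (-0.11), Tnfrsf12a (0.16), Tnfrsf21 (0.044), Tnfsf10 (-0.31) and Tnfsf18 (0.064). With single arrays left out, the lowest and highest values were -0.18 and 0.046 for Cd40, -0.23 and 0.011 for Fas, -0.096 and 0.049 for Lta, -0.044 and 0.088 for Ltb, -0.030 and 0.092 for Tnfrsf11a, -0.25 and 0.0014 for Tnfrsf12a, -0.16 and 0.13 for Tnfrsf13c, -0.015 and 0.12 for Tnfrsf14, -0.21 and 0.017 for Tnfrsf22, -0.15 and 0.15 for Tnfrsf23, -0.097 and 0.22 for Tnfsf10, -0.037 and 0.13 for Tnfsf11, -0.032 and 0.17 for Tnfsf15, -0.21 and 0.069 for Tnfsf4 and -0.043 and 0.10 for Tnfsf9.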
